A study of Chlorocebus sabaeus with 45 samples.

Results

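The genes described here were 7 dual-specificity MAP kinase phosphatases (DUSP1, DUSP2, DUSP4, DUSP5, DUSP6, DUSP10 and DUSP16) and the RAS exchange factors SOS1 and SOS2. They were taken by their gene symbols from the deposited expression tables, in which each symbol had a row, and made up 9 of 33994 listed genes. All 9 passed the filter on low values, which kept 18753 genes. Whole blood RNA was sequenced from 15 wild-born juvenile male vervet monkeys (Chlorocebus sabaeus), each sampled on day 0 (Tp1), day 3 (Tp2) and day 14 (Tp4), which gave 45 libraries. These days are those of the sample labels, whereas the series' design text dates the last time point a day later, at day 15, and the description of tube collection lists day 7 in place of day 3. Day 0 was the baseline, taken in the field right after trapping under ketamine and xylazine. The later samples came from the same animals in individual housing at a primate facility, under a quarantine-like routine taken as psychosocial stress, and under dexmedetomidine and midazolam. Sedation, place and relocation therefore cannot be told apart in any comparison with day 0. The comparison of day 14 with day 3 is within the facility. All animals were relocated, each came from a different troop, and no group without relocation is among the samples.

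MAP kinase cascades carry signals from the cell surface through RAS, RAF, MEK and ERK, and stress signals through the kinases JNK and p38. SOS proteins switch RAS on by exchanging its GDP for GTP after receptor stimulation. The MAP kinase phosphatases switch the cascades off by removing phosphate from both the threonine and the tyrosine of the activation loop of ERK, JNK or p38. Many of them are transcribed in response to the very kinases they turn off. In leukocytes these enzymes are known for limiting inflammatory and antigen receptor signaling, and DUSP1 is a well known target of glucocorticoids.

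Between 13216277 and 31469334 fragments per library fell on genes. The deposited FPKM (fragments relative to gene length and to the library's total on genes) were put on a common scale between libraries with TMM factors (trimmed mean of M values), and every level below is a TMM-scaled FPKM. The median scaling factor was 1.13 on day 0, 1.13 on day 3 and 0.804 on day 14. Without this scaling the median gene changed by −0.36 (log2) on day 14 vs. day 0 and by −0.35 on day 14 vs. day 3, so changes are relative to the typical gene. DUSP4 rested on the fewest fragments, between 15 and 174 per library, and DUSP1 on the most, between 1611 and 26552. Time points were compared with limma on log2(FPKM + 0.1), without a term for the animal. The p-values were adjusted by Benjamini-Hochberg over all 18753 genes, and a gene was called at an adjusted p-value under 0.05.

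DUSP1 had the highest level of the 9 genes on every day and DUSP4 the lowest. On day 0 the median FPKM was 147 for DUSP1, 25.4 for SOS2, 22.5 for DUSP6, 21.5 for SOS1, 9.52 for DUSP16, 9.33 for DUSP2, 8.63 for DUSP5, 2.14 for DUSP10 and 1.25 for DUSP4. DUSP1 exceeded the next gene in every animal on every day, and over DUSP6, next in order on the later days, the mean margin was 2.36 (log2) on day 3 and 2.29 on day 14. Neighbours in this order were compared by an exact sign-flip test over the 15 animals, adjusted over 24 pairs. On day 0 DUSP6 and SOS1, DUSP16 and DUSP2, and DUSP2 and DUSP5 did not differ beyond their spread (adjusted p = 0.651, 0.213 and 0.102). SOS2 was second on day 0, above DUSP6 in 13 of 15 animals (adjusted p = 0.0118). On day 3 it stood at 15.8 beside SOS1 at 15.8, and the pair did not differ beyond its spread (adjusted p = 0.629). On day 14 the 4 steps from DUSP6 through SOS2, SOS1 and DUSP2 to DUSP5 all missed the threshold (adjusted p between 0.111 and 0.651).

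**Figure D1:**
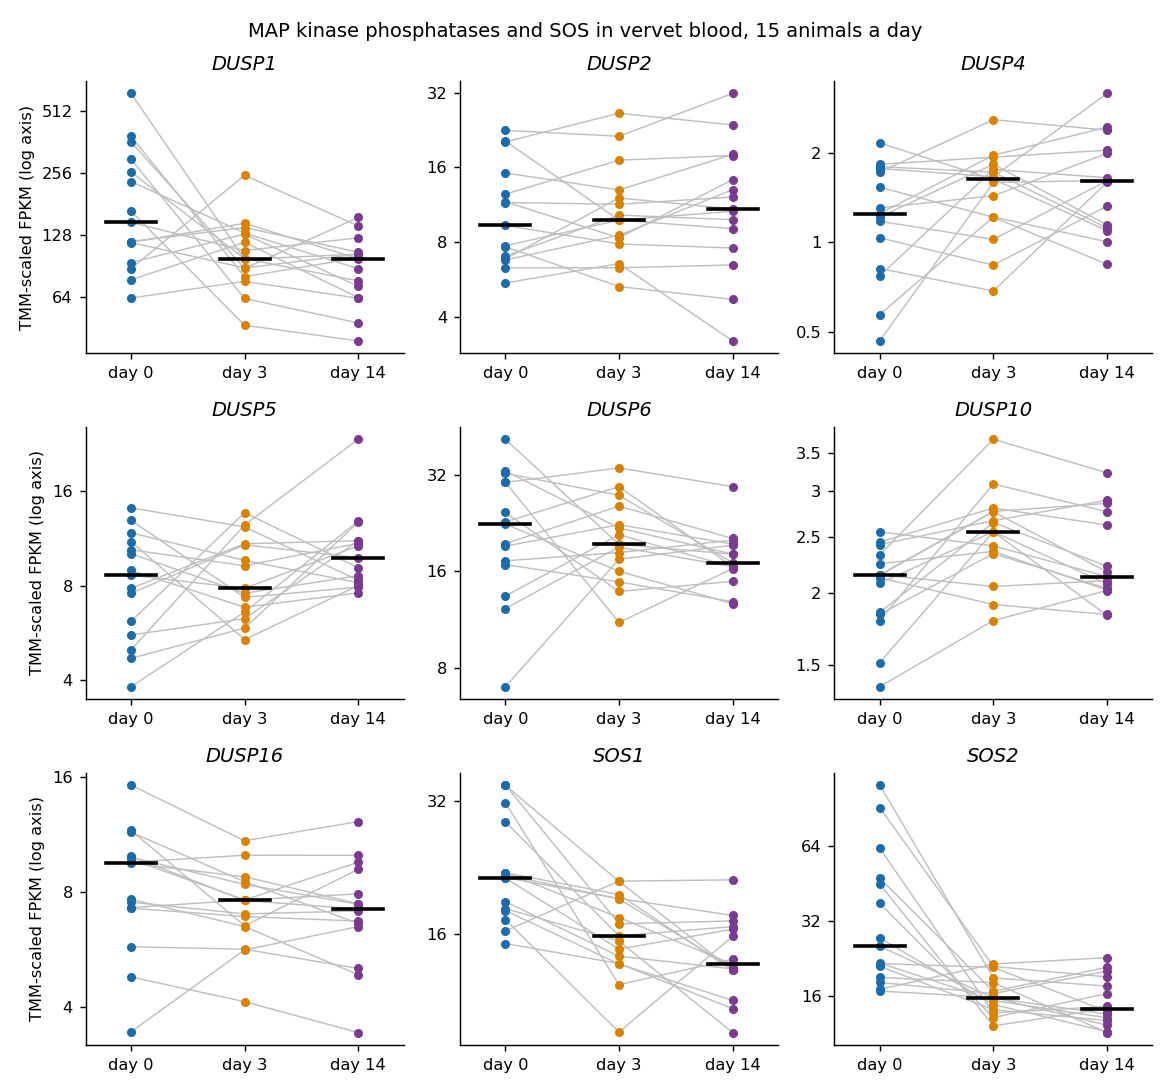
TMM-scaled FPKM (log axis) of the 9 genes on days 0, 3 and 14. Each point is 1 blood sample, grey lines join the samples of 1 animal and black bars are medians. SOS2 and DUSP1 spread widely on day 0, up to 112 and 626 FPKM, and lie lower and closer together on the later days, while the groups overlap for every gene.

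Of the 9 genes, 3 were called on day 3 vs. day 0 (SOS1 and SOS2 lower, DUSP10 higher), where 12.1% of all tested genes were called, 6.22% lower and 5.84% higher. On day 14 vs. day 0, 3 were called and all were lower (DUSP1, SOS1 and SOS2), against 19.3% of all genes called lower, 16.8% higher and 36.1% in either direction. On day 14 vs. day 3 limma called 0 of the 9, against 14.3% of all genes (7.09% higher and 7.26% lower), 0 had an unadjusted p-value under 0.05, and voom on recovered fragments also called 0. Over the 9 genes the median log2 fold change was −0.07 on day 3 and −0.21 on day 14, beside 0.01 and −0.05 over all tested genes. With so few genes these shares describe the 9 genes and single out no group.

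**Figure D2:**
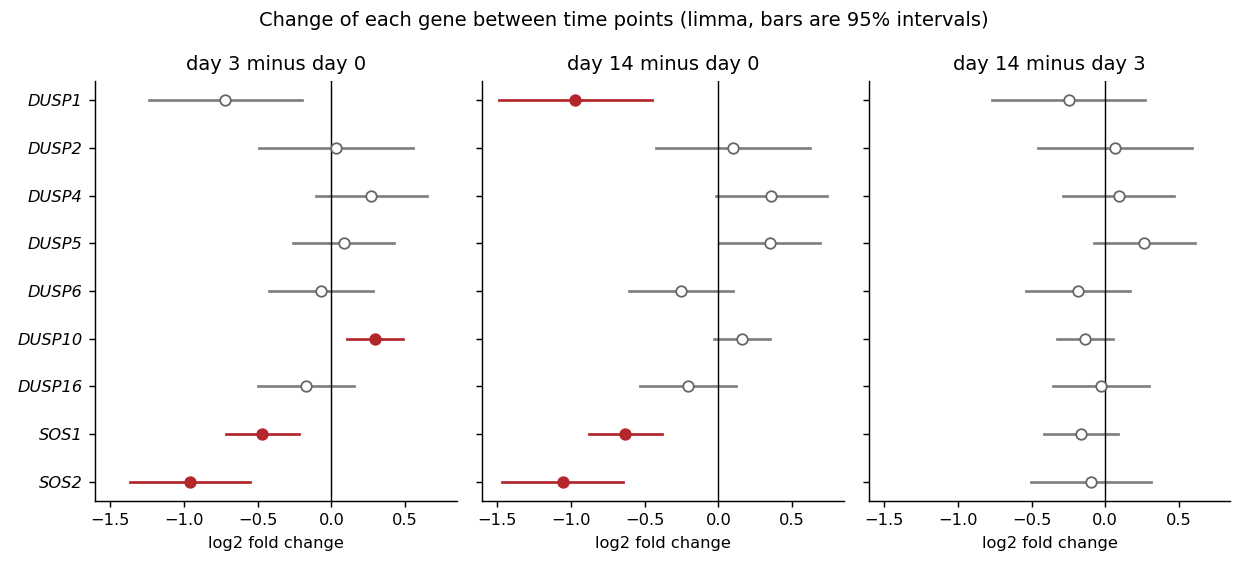
log2 fold change of each gene in the 3 comparisons from limma, with 95% confidence intervals as bars. Filled red points passed an adjusted p-value of 0.05. SOS1 and SOS2 lie left of zero in both comparisons with day 0 and DUSP1 does so on day 14, while every interval of day 14 minus day 3 includes zero.

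SOS2, an exchange factor that loads RAS with GTP, fell to about the same level on both later days. Its level ran from 16.8 to 112 FPKM on day 0 (median 25.4), from 12.2 to 21.5 on day 3 (median 15.8) and from 11.5 to 22.8 on day 14 (median 14.3). The highest values on day 0 were those of animals 11 (112 FPKM), 15 (91.1) and 7 (62.6), whereas the lowest, 16.8 in animal 9, lay within the range of the later days. The log2 fold change was −0.96 on day 3 (SE 0.20, adjusted p = 0.00202 from limma), a 1.94-fold lower level, and SOS2 was lower in 14 of 15 animals. On day 14 it was −1.06 (SE 0.20, adjusted p = 7.71e-05), lower in 13 animals. From day 3 to day 14 the change was −0.10, with a 95% interval from −0.51 to 0.31.

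SOS1, the paralog with the same exchange activity, fell by less. It ran from 15.2 to 34.8 FPKM on day 0 (median 21.5), from 9.58 to 21.1 on day 3 (median 15.8) and from 9.56 to 21.2 on day 14 (median 13.7). Animals 15, 11 and 7 were again the highest on day 0, and the later groups overlapped its lower range. The log2 fold change was −0.47 on day 3 (SE 0.12, adjusted p = 0.0105 from limma) and −0.63 on day 14 (SE 0.12, adjusted p = 9.39e-05), and SOS1 was lower in 14 of 15 animals on both days. From day 3 to day 14 it changed by −0.16 (95% interval −0.41 to 0.08).

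The balance between the paralogs shifted too. The mean ratio of SOS2 to SOS1 within a sample, which no scaling between libraries can move, was 1.44 on day 0, 1.03 on day 3 and 1.07 on day 14 (geometric means). It ran from 0.846 to 3.22 on day 0, from 0.769 to 1.37 on day 3 and from 0.860 to 1.37 on day 14. Only day 0 samples reached above 1.37, those of animals 2, 7, 8, 11, 13 and 15 (1.56 to 3.22). These were the animals with the highest level of neutrophil marker genes on day 0. In the other animals the day 0 ratio ran from 0.846 to 1.26, within the range of day 3. The ratio was lower in 11 of 15 animals on day 3 and in 10 on day 14 (exact sign-flip tests over the animals, adjusted p = 0.0256 and 0.0377 over 15 tests of ratios). The call on day 3 was lost when any of animals 2, 4, 7, 11, 13 or 15 was left out (adjusted p up to 0.0513). The call on day 14 was lost without any of these 6 or without animal 8 or 10 (adjusted p up to 0.0754).

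Animals also differed more from each other in SOS2 on day 0 than later. The SD of log2 SOS2 was 0.89 on day 0, against 0.25 on day 3 and 0.32 on day 14. The distance of an animal from the median of its day was smaller on day 3 in 13 of 15 animals (exact sign-flip test, adjusted p = 0.0231 over 27 tests), and on day 14 in 11 (adjusted p = 0.0882). Without TMM scaling the difference on day 3 was smaller and missed the threshold (adjusted p = 0.324). For DUSP1 the SD was 0.97, 0.57 and 0.56 on the 3 days (adjusted p = 0.278 for both later days against day 0). None of the remaining 7 genes passed this test in any comparison.

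**Figure D3:**
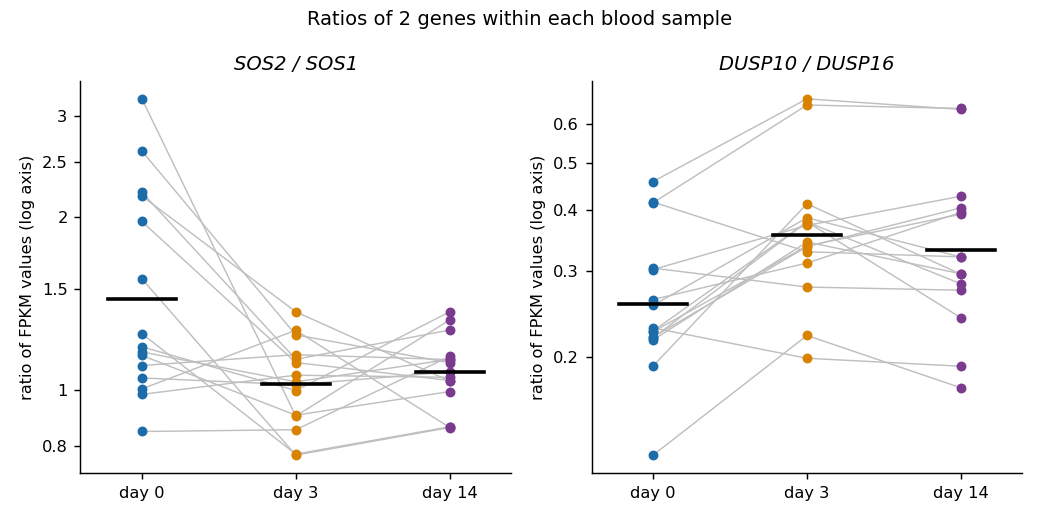
Ratio of SOS2 to SOS1 (left) and of DUSP10 to DUSP16 (right) within each blood sample, on log axes, with the samples of 1 animal joined and black bars for geometric means. The SOS2 to SOS1 ratio reaches 3.22 on day 0 and at most 1.37 later, and the mean DUSP10 to DUSP16 ratio goes from 0.257 on day 0 to 0.356 on day 3 and 0.333 on day 14.

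DUSP1, an inducible nuclear phosphatase of p38, JNK and ERK, was lower on day 14 than on day 0. It ran from 63.2 to 626 FPKM on day 0 (median 147), from 46.6 to 250 on day 3 (median 98.2) and from 39.0 to 156 on day 14 (median 98.1). Animals 11, 15 and 7 held the highest day 0 levels, at 626, 387 and 364 FPKM, and the lower part of the day 0 range overlapped the later days. On day 14 the log2 fold change was −0.97 (SE 0.26, adjusted p = 0.00286 from limma), a 1.96-fold lower level, with 14 of 15 animals lower. On day 3 it was −0.72 (SE 0.26, 95% interval −1.24 to −0.20) and missed the threshold with an adjusted p of 0.0584, and only 9 of 15 animals were lower. With the animal as a block in the limma fit the adjusted p on day 3 was 0.0377. Of the 11 alternatives that keep all animals, 3 passed on day 3, the block among them (limma adjusted p down to 0.0174). Leaving out 1 animal also moved this call, which passed without animal 5, 9, 12 or 14 (adjusted p down to 0.0190). Animal 5 had the highest DUSP1 level on day 3, 250 FPKM against 87.7 on day 0.

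DUSP2, DUSP4 and DUSP5 are further inducible nuclear phosphatases, DUSP2 being known from activated lymphocytes and DUSP5 for its preference for ERK. DUSP2 ran from 5.46 to 22.5 FPKM on day 0 (median 9.33) and from 3.19 to 31.8 on day 14 (median 10.9), and its log2 fold change of 0.10 on day 14 had an interval from −0.42 to 0.62. DUSP5 had a median of 8.63 FPKM on day 0, 7.84 on day 3 and 9.81 on day 14, where animal 6 stood highest at 23.4. Its log2 fold change on day 14 was 0.35 (SE 0.17, 95% interval 0.0062 to 0.69, adjusted p = 0.104 from limma), higher in 9 of 15 animals, and this passed the threshold only without animal 2 (adjusted p = 0.0489). DUSP4 ran from 0.466 to 2.15 FPKM on day 0, 0.686 to 2.58 on day 3 and 0.844 to 3.16 on day 14. Its log2 fold change on day 14 was 0.36 (SE 0.19, adjusted p = 0.130), with 11 of 15 animals higher, and the interval ran from −0.02 to 0.74. The intervals of DUSP2 and DUSP4 include zero.

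The ratio of DUSP2 to DUSP1 went from 0.0612 on day 0 to 0.103 on day 3 and 0.129 on day 14 (geometric means). It was higher in 12 of 15 animals on day 14 (exact sign-flip test, adjusted p = 0.0377) and in 9 on day 3 (adjusted p = 0.160). The day 14 call was lost without animal 2, 4, 7, 10, 11, 13 or 15 (adjusted p up to 0.0754). DUSP5 relative to DUSP4 gave no call in any of the 3 comparisons (adjusted p between 0.438 and 0.904).

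DUSP6, the cytoplasmic phosphatase of ERK and a known feedback target of that kinase, showed no called change with TMM scaling. Without that scaling DUSP6 was called lower on day 14 against both day 0 and day 3 (limma adjusted p = 0.00406 and 0.0225). Its level ran from 6.97 to 41.4 FPKM on day 0 (median 22.5), from 11.1 to 33.6 on day 3 (median 19.4) and from 12.7 to 29.4 on day 14 (median 17.0). The highest day 0 sample was that of animal 7 and the lowest that of animal 10. On day 14 the log2 fold change was −0.25 (95% interval −0.61 to 0.10, adjusted p = 0.263 from limma), lower in 9 of 15 animals. Set against DUSP6 in the same sample, DUSP1 was 8.06 times as high on day 0, 5.13 times on day 3 and 4.90 times on day 14 (geometric means). The change was called on day 14 (exact sign-flip test, adjusted p = 0.0410, lower in 11 of 15 animals) but not on day 3 (adjusted p = 0.0914). The day 14 call was lost without animal 2, 3, 4, 7, 10, 11, 12, 13, 14 or 15 (adjusted p up to 0.0821).

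DUSP10 and DUSP16 act mainly on JNK and p38. DUSP10 was the only gene of the 9 called higher, and only on day 3. It ran from 1.38 to 2.55 FPKM on day 0 (median 2.14), from 1.79 to 3.69 on day 3 (median 2.55) and from 1.83 to 3.23 on day 14 (median 2.14). Animal 2 was highest on both later days and animal 11 lowest on days 0 and 3. The log2 fold change on day 3 was 0.29 (SE 0.09, adjusted p = 0.0338 from limma), a 1.22-fold higher level, with 12 of 15 animals higher. This call was lost without animal 2, 6, 7, 10, 12, 13, 14 or 15 (adjusted p up to 0.0789), with no filter on low values (adjusted p = 0.0502), with RNA integrity as a covariate (adjusted p = 0.117), and without TMM scaling (adjusted p = 0.447). On day 14 the log2 fold change was 0.16 (95% interval −0.03 to 0.35, adjusted p = 0.194).

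DUSP16 ran from 3.45 to 15.3 FPKM on day 0 (median 9.52), from 4.14 to 10.9 on day 3 (median 7.61) and from 3.44 to 12.2 on day 14 (median 7.23). Animal 10 was the highest on all 3 days. Its log2 fold change was −0.17 on day 3 (95% interval −0.50 to 0.15) and −0.21 on day 14 (−0.53 to 0.12), lower in 12 of 15 animals on both days, with adjusted p = 0.544 and 0.339 from limma. The ratio of DUSP10 to DUSP16 rose from 0.257 on day 0 to 0.356 on day 3 and 0.333 on day 14, and was higher in 12 of 15 animals on both days (exact sign-flip tests, adjusted p = 0.0224 for both). This shift between the JNK and p38 phosphatases passed with each of the 15 animals left out in turn (adjusted p up to 0.0439 on day 3 and 0.0449 on day 14).

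In bulk blood, fewer cells of a type and less RNA per cell cannot be told apart, and marker genes of several blood cell types moved with the time points. Of 14 tested neutrophil markers 7 were called lower on day 3 and 13 on day 14, where 6.22% and 19.3% of all genes were called lower. Their summed level ran from 1318 to 41953 FPKM on day 0, from 556 to 6864 on day 3 and from 537 to 4297 on day 14. S100A12, a defining neutrophil gene, averaged only 0.307 FPKM on day 0, while FPR1 averaged 478. Against 16.8% of all genes called higher on day 14, 8 of 8 erythroid markers, 4 of 7 NK cell markers, 2 of 7 platelet markers, 2 of 8 eosinophil and basophil markers and 1 of 8 T cell markers were called higher, the shares of the last 2 lists being near that of all genes. Of 8 monocyte markers 3 were called lower on that day and of 7 B cell markers 1, the latter share again near that of all genes. On day 3 all 7 platelet markers, 4 erythroid, 3 monocyte and 2 NK cell markers were called higher, against 5.84% of all genes, and no T cell, B cell, eosinophil or basophil marker was called. With the animal as a block, where 19.0% of all genes were called on day 3 and 44.1% on day 14, limma called 7 erythroid and 5 NK cell markers higher and 1 T cell marker lower on day 3, and 6 NK cell, 4 platelet and 3 T cell markers higher and 3 B cell markers lower on day 14. The part of these shifts in the changes of the 9 genes was not tested, except for the neutrophil level, for which the following values were taken.

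The neutrophil level, the mean log2(FPKM + 0.1) of the 14 markers, ran from 4.21 to 7.66 on day 0, from 2.93 to 5.27 on day 3 and from 2.70 to 4.80 on day 14. The 6 day 0 samples with the highest SOS2 were the 6 with the highest neutrophil level (animals 2, 7, 8, 11, 13 and 15). For DUSP1 5 of the 6 highest were among them, and for SOS1 4. The same 6 samples held the 6 highest ratios of SOS2 to SOS1 on day 0. The shift of that ratio was not tested with the neutrophil level as a covariate. The day 0 levels had a gap between 4.74 and 5.52 and another between 6.49 and 7.35, above which lay animals 7, 11 and 15. Among the 8 samples below the first gap, whose neutrophil levels differed little, Pearson's r with the neutrophil level was −0.264 for SOS2, −0.438 for SOS1, 0.179 for DUSP6 and −0.213 for DUSP1. Among the 7 above it, which the second gap divides into 4 and 3, it was 0.904, 0.921, 0.865 and 0.667, values that this division enters and that were not tested. Over all 15 day 0 samples r was 0.949 for SOS2, 0.867 for DUSP1, 0.830 for SOS1 and 0.720 for DUSP6. By permutation tests over 27 relations these had adjusted p = 0.00027, 0.00108, 0.00277 and 0.00841, but both gaps enter them. For SOS1 rho was 0.514 and did not pass (adjusted p = 0.126 by permutation).

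The later days also had gaps, which left animals 10 and 4 below the rest on day 3, at 2.93 and 3.23 against at least 3.89, and animal 10 on day 14, at 2.70 against at least 3.45. Across the 15 animals SOS2 and DUSP1 followed the neutrophil level on both days. For SOS2, r was 0.619 on day 3 (rho 0.657) and 0.753 on day 14 (rho 0.811), with adjusted p = 0.0459 and 0.00508 for r from permutation tests over 27 relations. Both were higher when the 2 samples farthest from the median, which include those of animal 10, were left out (r = 0.804 and 0.879). For DUSP1, r was 0.764 on day 3 (rho 0.679) and 0.833 on day 14 (rho 0.743), with adjusted p = 0.00508 and 0.00126 by permutation, and 0.532 and 0.791 without the farthest 2 samples. DUSP2 went the other way, with r = −0.597 (rho −0.543) on day 3 and −0.609 (rho −0.754) on day 14 (adjusted p = 0.0489 and 0.0471 for r, 0.105 and 0.0113 for rho, by permutation), and r = −0.639 and −0.768 without the farthest 2. SOS1, DUSP4, DUSP5, DUSP6, DUSP10 and DUSP16 passed no such test on days 3 and 14.

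With the neutrophil level as a covariate in limma, an alternative added after the data were seen, the log2 fold change of DUSP1 was 0.03 on day 3 (adjusted p = 0.948) and −0.00 on day 14 (adjusted p = 0.9998). SOS2 kept −0.35 on day 3 (adjusted p = 0.0440) and −0.27 on day 14 (adjusted p = 0.0983), and SOS1 −0.24 (adjusted p = 0.190) and −0.34 (adjusted p = 0.0364). DUSP10 was no longer called on day 3, at 0.20 (adjusted p = 0.216). DUSP16 then passed on day 14, at −0.52 (adjusted p = 0.0225). The members called were thus 1 on day 3 (SOS2) and 2 on day 14 (SOS1 and DUSP16) instead of 3 and 3, where 11.1% and 31.5% of all genes were called.

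**Figure D4:**
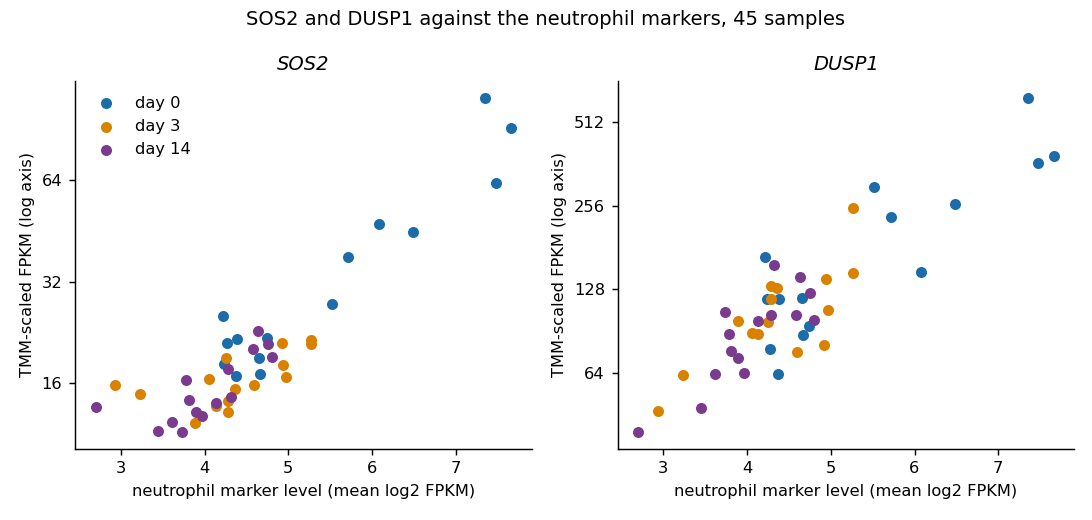
SOS2 (left) and DUSP1 (right), TMM-scaled FPKM on a log axis, against the neutrophil marker level, the mean log2(FPKM + 0.1) of 14 genes, in the 45 samples colored by day. Day 0 samples reach 7.66 on the neutrophil axis, where SOS2 and DUSP1 are also high, and all day 3 and day 14 samples lie at or below 5.27.

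Across all 45 samples, SOS1 and SOS2 moved together (r = 0.843 in log2 FPKM, and 0.740 after the mean of each day was taken out), and DUSP1 followed SOS2 (r = 0.818 and 0.754). DUSP2, DUSP4, DUSP5 and DUSP10 were positively correlated among themselves, with r between 0.301 and 0.454 for their 6 pairs. For DUSP16, r with the other 8 genes lay between −0.226 and 0.0742, and after the mean of each day was taken out between −0.393 (SOS2) and 0.133 (DUSP5), with −0.356 for DUSP1. These correlations pool 3 samples per animal, and shared cell composition enters all of them.

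The genes whose levels were most like each of the 9 were sought among 12886 tested genes with a mean of at least 1 FPKM, by Pearson's r over the 45 samples. For SOS2 they were UGCG (r = 0.979), FBXL5 (0.963) and FAM126B (0.962), and for SOS1 NABP1 (0.912), LYST (0.907) and FBXO11 (0.901). For DUSP1 they were ARG2 (0.914), GADD45B (0.910) and PYGL (0.909). DUSP2 was closest to PTPRCAP (0.773), ZAP70 (0.751), a T cell receptor kinase, and LOC103241366 (0.742). DUSP6 was closest to TP53INP1 (0.776), CCR2 (0.773), a monocyte chemokine receptor, and LOC103229355 (0.744). DUSP10 was closest to ZBTB38 (0.759), CD8A (0.747), a coreceptor of cytotoxic T cells, and SPN (0.742). For DUSP16 the closest were DISP1 (0.748), WDR89 (0.715) and PPM1L (0.703), for DUSP4 TEF (0.747), IFNLR1 (0.739) and DPP3 (0.705), and for DUSP5 CCNE1 (0.699), LOC103221998 (0.692) and LOC103222010 (0.675).

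The rest of the pathway was taken from 7 lists with 86 genes, of which 76 were tested. On day 3 vs. day 0, 7 of these were called higher and 9 lower, against 5.84% and 6.22% of all genes, with a median log2 fold change of −0.04. On day 14 vs. day 0, 10 were higher and 26 lower, against 16.8% and 19.3% of all genes, with a median of −0.17 beside −0.05 over all genes. With the animal as a block limma called 10 higher and 13 lower on day 3, and 10 higher and 28 lower on day 14, where 19.0% and 44.1% of all genes were called. Without TMM scaling the split on day 14 was 4 higher and 48 lower, where 49.5% of all genes were called. On day 14 vs. day 3, 1 was higher and 7 lower, where 7.09% and 7.26% of all genes were, against 0 and 48 without TMM, where 38.4% of all genes were called. With the animal as a block that comparison called 4 higher and 14 lower, and 25.4% of all genes. It was also the least stable to single animals, with between 1 and 15 calls: 1 without animal 2, 2 without animal 3, 8, 9 or 12, 4 without animal 1 or 14, 5 without animal 4, 5 or 13, and 15 without animal 7. The 7 genes named below for this comparison each lost their call when some single animal was left out. With the neutrophil level as a covariate, 9 pathway genes were called higher and 21 lower on day 14 vs. day 0 in place of 10 and 26. Calls printed below that this covariate removed are marked there. The other calls printed there without the animal as a block, those of RASGRP3 and RASGRF2 among them, were kept. The covariate also removed calls not printed there, that of BRAF on day 3 (adjusted p = 0.878 from limma) among them. On day 14 vs. day 0 these included KSR1, MAPK13 and MAPKAPK3 (adjusted p = 0.231, 0.546 and 0.234 from limma).

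Among the proteins around SOS that turn RAS on, 3 of 11 were called higher and 3 lower on day 14, not far from the 16.8% and 19.3% of all genes. The adaptor GAB2 went from 11.3 ± 7.42 FPKM (SD, n = 15) on day 0 to 4.21 ± 1.76 on day 14 (log2 fold change −1.26, SE 0.25, limma adjusted p = 1.32e-04), with 14 animals lower. Its change was −0.36 and no longer called with the neutrophil level as a covariate (adjusted p = 0.144 from limma). It was also called lower on day 3 with the animal as a block (−0.72, limma adjusted p = 0.0184). RASGRP3, an exchange factor driven by diacylglycerol, went the other way, from 9.45 ± 3.05 to 17.7 ± 7.02 (0.87, SE 0.19), higher in 14 animals. RASGRF2, a calcium-dependent exchange factor, fell by 0.65 on the log2 scale and was lower in 14 animals. On day 3 the called genes were the adaptor SHC1 (0.43) and the phosphatase PTPN11 (0.28), each higher in 14 animals. The PTPN11 call was lost without TMM scaling (0.24, limma adjusted p = 0.362), and PTPN11 was lower again by day 14 than on day 3 (−0.23).

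Of 12 tested RAS inhibitors, 6 were called lower and 1 higher on day 14, where 19.3% of all genes were called lower and 16.8% higher. The GTPase-activating protein NF1 went from 13.9 ± 6.26 FPKM on day 0 to 6.39 ± 1.31 on day 14 (log2 fold change −1.03, SE 0.16) and was lower in 15 of 15 animals. RASA2 went from 64.6 ± 25.6 to 36.1 ± 5.85 (−0.76) and RASA1 from 20.3 ± 2.19 to 16.1 ± 2.11 (−0.34). On day 3 RASA2 (−0.71) and NF1 (−0.62) were already lower, though NF1 was not called with the neutrophil level as a covariate (−0.30, limma adjusted p = 0.176), and 3 of the 12 were called lower in all and 2 higher, against 6.22% and 5.84% of all genes.

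In the kinase core of RAS, RAF, MEK and ERK, 6 of 12 genes were called lower and 1 higher on day 14, against 19.3% and 16.8% of all genes. The kinase BRAF fell by 0.70 on the log2 scale (SE 0.20) from 18.2 ± 14.6 FPKM on day 0, and was lower in 12 of 15 animals. With the neutrophil level as a covariate its sign turned, to 0.04 (adjusted p = 0.856 from limma), and with RNA integrity as a covariate it missed the threshold (adjusted p = 0.184). On day 3, 3 of the 12 genes were called lower, against 6.22% of all genes. The scaffold KSR1 was the gene of this list called on day 14 vs. day 3 (−0.42).

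In the JNK and p38 cascade, on which DUSP1, DUSP10 and DUSP16 act, 7 of 17 tested genes were called lower and 2 higher on day 14, against 19.3% and 16.8% of all genes, and 3 lower and 2 higher on day 3, against 6.22% and 5.84%. The p38 kinase MAPK14 went from 94.0 ± 57.2 FPKM to 41.0 ± 5.27 (log2 fold change −0.99, SE 0.18) and was lower in 14 of 15 animals. MAP3K11 (−0.73) and MAP3K2 (−0.50) fell in 14 animals each, and MAP3K2 (−0.35) and MAPK14 (−0.68) were lower on day 3, the former not called without TMM scaling (limma adjusted p = 0.0792). With the neutrophil level as a covariate MAPK14 changed by −0.28 on day 14 (adjusted p = 0.0323 from limma) and by −0.13 on day 3 (adjusted p = 0.399), and MAP3K11 by −0.28 on day 14 (adjusted p = 0.0593). The 2 genes called higher, MAP2K3 (1.42) and MAP2K7 (1.14), which activate p38 and JNK, were named after their values were seen. They were also the 2 called higher on day 3 (0.96 and 0.76, limma adjusted p = 0.0164 and 0.0207), and with the neutrophil level as a covariate their changes on day 14 were larger, 1.91 and 1.51 (adjusted p = 6.32e-06 and 1.35e-05). From day 3 to day 14 MAPK13 was lower (−0.48) and MAP2K4 higher (0.26), the latter with its sign turned without TMM scaling (−0.088).

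Of 10 kinases activated by MAP kinases, 3 were called lower and 1 higher on day 14, near the 19.3% and 16.8% of all genes. RPS6KA1, a ribosomal S6 kinase under ERK, went from 78.9 ± 28.8 to 122 ± 44.7 FPKM (log2 fold change 0.63), whereas its paralog RPS6KA2 went from 5.29 ± 4.20 to 2.12 ± 0.632 (−0.97). RPS6KA2 changed by 0.06 with the neutrophil level as a covariate and was not called (adjusted p = 0.772 from limma), while RPS6KA1 was still called higher. The call of RPS6KA1 was lost without TMM scaling (adjusted p = 0.0665) and that of RPS6KA2 with RNA integrity as a covariate (adjusted p = 0.0694). MKNK2 fell by 0.42 against day 0 and by 0.37 against day 3, and MAPKAPK3, a kinase under p38, by 0.31 against day 3.

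Among 4 tested further MAP kinase phosphatases the tyrosine phosphatases PTPN7 (0.31, higher in 15 of 15 animals) and PTPRR (0.75, named after its value was seen) were called higher on day 14, where 16.8% of all genes were, and limma called 0 on day 3. PTPRR lay near the floor, at a mean of 0.177 FPKM on day 0 and 0.424 on day 14, against 7.23 and 8.91 for PTPN7. It is thus below the mean of 1 FPKM required of genes named by rule. With the animal as a block PTPN7 was called on day 3 as well (0.25, higher in 12 animals, adjusted p = 0.00522 from limma), and so was DUSP7 on day 14 (−0.25, lower in 12 animals, adjusted p = 0.0258), named here after its value was seen. DUSP7 was also called with the neutrophil level as a covariate (−0.39, adjusted p = 0.0101). The day 14 calls of PTPN7 and PTPRR were both lost with that covariate (adjusted p = 0.224 for PTPN7 and 0.167 for PTPRR) or with RNA integrity as one (adjusted p = 0.114 and 0.179), and without TMM scaling PTPN7 turned to −0.078 and PTPRR missed the threshold (adjusted p = 0.125). Among 10 tested atypical dual-specificity phosphatases DUSP18 was lower on day 14 (−0.38, lower in 13 animals), a call lost with the animal as a block together with RNA integrity (−0.26, limma adjusted p = 0.0954), where 19.3% of all genes were called lower. DUSP3 was called on day 3 alone among the comparisons with day 0, going from 2.05 ± 1.92 to 4.22 ± 2.04 FPKM (log2 fold change 1.21, SE 0.29), and was lower again on day 14 than on day 3 (−0.88, SE 0.29).

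**Figure D5:**
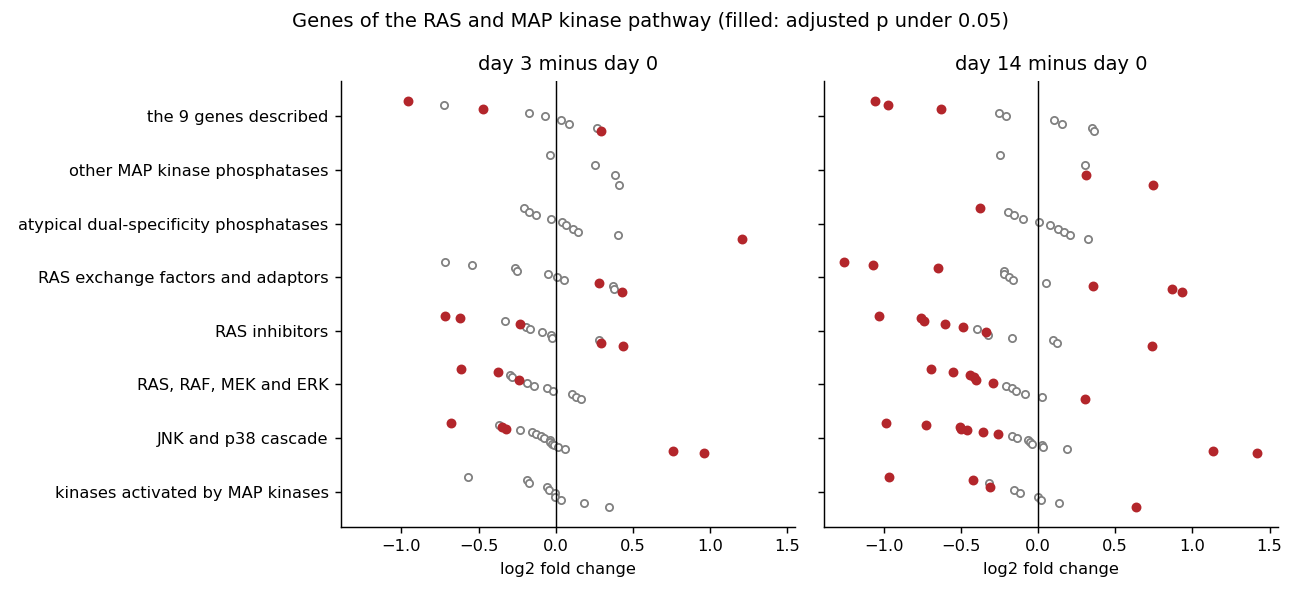
log2 fold change of the 9 genes and of the tested genes of 7 pathway lists on day 3 (left) and day 14 (right) against day 0. Each point is a gene, and filled red points passed an adjusted p-value of 0.05 in limma. On day 14, 26 of 76 pathway genes are called lower and 10 higher, and the RAS inhibitors and the kinase core hold 6 called lower each.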

How the data were processed

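Blood RNA in PAXgene tubes was made into stranded libraries after ribosomal and globin depletion and sequenced as paired ends. The authors used STAR for alignment to Chlorocebus_sabeus 1.1 and HTSeq for counting (versions not given in the sources used here), after bcl2fastq 2.17. The values are FPKM as deposited by the authors, a table for each of the 45 samples, with no further scaling between libraries. All of their values above 0 (100%) were whole multiples of 1 fragment within 0.001 fragment, which gave the fragment counts. From these, TMM factors were computed, and log2(FPKM + 0.1) was tested with limma 3.58.1 (R 4.3.3), with a mean per time point, over genes with more than 0.5 CPM in at least 3 samples. Paired values within animals were tested by exact sign-flip tests and correlations by permutation (Python 3.11.15, scipy 1.17.1). The fit was checked on simulated data. Unless a block is named, the limma fit had no animal term, so its p-values and intervals treat the samples of an animal as independent. The sign-flip and permutation tests cover the spread between animals. All intervals assume no other error.

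The members and gene lists were chosen with earlier results of these data known. Text names all 9 members, from each pathway list up to 3 called genes of lowest adjusted p on day 14 vs. day 0 and up to 2 in the other comparisons (mean of at least 1 FPKM), and the 3 genes closest to each member. Samples sharing an animal number came from the same animal. After removal of the day means they correlated across genes with a mean r of 0.328 (lowest animal 0.191) and other pairs with −0.0382, so a fit with the animal as a block is an alternative. Other alternatives were no TMM, other pseudocounts (1 and 0.01), other filters, RNA integrity as a covariate, array weights, each animal left out and, added after the data were seen, voom on recovered fragments and the neutrophil level as a covariate. In most animals the RNA integrity numbers listed by the study were higher on both later days than on day 0, so that covariate overlaps with the day. Symbols alone identify the genes, no coordinates of the files' build were used here, and FCGR3B, PF4, LILRB4, TRAT1, SIGLEC8 and MAP3K8 from the lists were not analysed here. Some genes that the naming rule selects are not reported here.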

Additional observations from a re-analysis of the deposited data

How the results depend on the processing

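SOS1, SOS2 and DUSP1 were lower on day 14 vs. day 0 under every alternative run, DUSP1 hardly so with the neutrophil level, and passed the threshold in all of them except with the neutrophil level as a covariate for SOS2 and DUSP1, given above. Without TMM, 5 of the 9 genes were called on day 14 vs. day 0 and also 5 from day 3 to day 14, all lower. In these comparisons 49.5% and 38.4% of all genes were then called. Without TMM 48 pathway genes were called on day 14 vs. day 3, while 0 genes passed for the spread between animals. Pathway genes called on day 14 vs. day 3 were 3 with no filter, 3 with the RNA integrity number, 20 with array weights and 16 with the neutrophil level. The animal as a block called 18, and 25.4% of all genes. For no filter, the RNA integrity number (alone or with the block), array weights and, in this comparison, the neutrophil level, the share of all genes is not given here. On day 14 vs. day 0 the animal as a block together with the RNA integrity number called 23 pathway genes in place of 36. On day 3 vs. day 0 the neutrophil level left 1 of the 9 genes, where 11.1% of all genes were called. The cause of these differences was not tested. The block changed no other call among the 9 genes than that of DUSP1 on day 3. With 1 animal left out, pathway calls on day 14 vs. day 3 lay between 1 and 15 and calls among the 15 ratio tests between 2 and 7, against 8 and 6.

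Among the 9 genes, signs turned only for values that were not called. Among the named pathway genes, called values turned on day 14 vs. day 0 with the neutrophil level, to 0.041 for BRAF and 0.064 for RPS6KA2, and without TMM to −0.078 for PTPN7, and on day 14 vs. day 3 without TMM to −0.088 for MAP2K4. DUSP2 on day 3 was −0.00764 without TMM, −0.081 with the RNA integrity number, alone or with the block, −0.18 with array weights and −0.24 with the neutrophil level. On day 14 it was −0.29, −0.13, −0.13, −0.036 and −0.26 under the same settings, and from day 3 to day 14 −0.28 without TMM, −0.053 with the RNA integrity number, alone or with the block, and −0.014 with the neutrophil level. DUSP5 on day 3 was −0.10 with the RNA integrity number, −0.13 with the block added and −0.029 with the neutrophil level. On day 14 it was −0.040 without TMM, −0.032 with the RNA integrity number and −0.10 with the block added, and from day 3 to day 14 −0.084 without TMM. Also without TMM, DUSP4 was −0.0091 on day 14 and −0.24 from day 3 to day 14, and DUSP10 −0.22 on day 14. DUSP6 on day 3 was 0.093 with array weights and 0.25 with the neutrophil level, and 0.17 on day 14 with the latter. With the neutrophil level DUSP1 was 0.026 on day 3 and SOS2 0.083 from day 3 to day 14. Without TMM the change in distance from the median turned to −0.088 for DUSP1, 0.013 for DUSP5, 0.048 for DUSP6 and 0.14 for SOS1 from day 3 to day 14, to 0.047 for DUSP6 and 0.24 for SOS1 from day 0 to day 14, and to −0.075 for DUSP10 and 0.10 for SOS1 from day 0 to day 3. With 1 animal left out, values of DUSP2 on day 3 lay between −0.023 and 0.11, of DUSP5 between −0.0036 and 0.16, and of DUSP6 between −0.17 and 0.029. The log2 ratio changes then lay between −0.14 and 0.0015 for DUSP1/DUSP6 from day 3 to day 14 and between −0.15 and 0.069 for DUSP5/DUSP4 from day 0 to day 14. DUSP4, with as few as 15 fragments in a library, is limited most by depth.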
